A study of Homo sapiens with 19 samples.

Results

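The genes described here are 44 that copy DNA or carry cells through mitosis, and they were chosen by symbol as the rows of those genes among the 33382 genes of RNA-seq of H1 cells, an established human embryonic stem cell line. By role, 21 act in DNA replication and 23 in mitosis, and all 44 are protein coding and lie on 18 chromosomes. Of the 19 samples, 12 came from 6 lines with 2 samples each: WT H1, the single knockouts EZH1-/-, EZH2-/-, EED-/- and SUZ12-/-, and the double knockout EZH2-/-/EZH1-/-. The other 7 were H1-EED-/-/EED-OE cells. In that last line the endogenous EED gene had been deleted and a lentiviral EED transgene was kept on by doxycycline (DOX). A single sample was kept on DOX, whose title carries a day 28 mark although its labels give no time, and 1 sample was taken on day 8, 12, 16, 20, 24 or 28 of culture without it. All lines descend from H1 cells, which were grown in mTeSR1 on matrigel, and each knockout removed the functional domain of its gene with CRISPR/Cas9 and a drug resistance cassette. The comparison asked here is how high these genes ran in the 6 lines and over the days after EED was switched off.

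EED, SUZ12 and the methyltransferases EZH1 and EZH2 form polycomb repressive complex 2 (PRC2), which places H3K27me3 on chromatin. EED and SUZ12 are needed by the complex whichever enzyme it holds, and EZH1 and EZH2 can stand in for each other in part. The EED-/-, SUZ12-/- and EZH2-/-/EZH1-/- lines are therefore called PRC2-null below, and WT H1, EZH1-/- and EZH2-/- the retaining lines. Levels are TPM, a relative abundance scaled for transcript length, and differences are on the log2(TPM + 1) scale with the standard error (SE) of a limma fit. A gene was called where its Benjamini-Hochberg adjusted p over all genes tested was at most 0.05.

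A cell prepares to copy its DNA by licensing origins: the origin recognition complex, CDC6 and CDT1 load the MCM helicase in G1, and CDC45 and the GINS complex switch the helicase on in S phase. CDK1 with cyclin A2 or cyclin B1 then drives mitosis, aurora and polo kinases build the spindle, the checkpoint kinases hold anaphase back, and CDC20 with UBE2C starts the destruction of cyclins. E2F factors are known to drive many of the replication genes at the G1/S boundary, and a MYB-MuvB and FOXM1 complex many of the mitotic genes in G2, through CHR elements and CCAAT boxes. Human embryonic stem cells divide rapidly and are known for high levels of these transcripts.

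Promoter sequence was available for 37 of the 44 genes in a RefSeq table (GRCh38.p14), as the 250 bases before the start farthest upstream. The stretches below, of 120 bases ending just before the start, were chosen after their values were seen to show a helicase gene, a licensing gene, the gene that changed least and a pair of mitotic genes. Capitals mark E2F-like words (TTTCCCGC, TTTCGCGC, TTTGCCGC or TTTGGCGC), CHR-like words (TTTGAA or TTCGAA) and CCAAT, each on either strand. A pair of E2F-like words overlap in MCM6, and a CHR-like word and a CCAAT word read on the other strand overlap in MKI67.
MCM6 (chr2:135876444-135876563, minus strand): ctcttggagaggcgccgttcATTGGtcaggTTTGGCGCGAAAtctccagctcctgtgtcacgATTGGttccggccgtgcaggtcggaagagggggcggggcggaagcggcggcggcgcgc
CDT1 (chr16:88803669-88803788, plus strand): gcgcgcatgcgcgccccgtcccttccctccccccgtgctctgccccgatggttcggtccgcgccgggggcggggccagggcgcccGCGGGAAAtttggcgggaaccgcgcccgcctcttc
TYMS (chr18:657533-657652, plus strand): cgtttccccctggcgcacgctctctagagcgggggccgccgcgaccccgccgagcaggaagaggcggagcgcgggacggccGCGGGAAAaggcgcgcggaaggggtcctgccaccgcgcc
CDC20 (chr1:43358861-43358980, plus strand): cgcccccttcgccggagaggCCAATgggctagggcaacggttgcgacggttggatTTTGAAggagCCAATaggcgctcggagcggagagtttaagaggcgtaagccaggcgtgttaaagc
MKI67 (chr10:128126424-128126543, minus strand): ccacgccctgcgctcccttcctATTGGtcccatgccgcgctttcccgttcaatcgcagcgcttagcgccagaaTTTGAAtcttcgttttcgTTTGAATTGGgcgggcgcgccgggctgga

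An E2F-like word stood in 8 of 19 replication promoters and in 1 of 18 mitosis promoters, beside 2.78% of all 27305 promoters of that length. A CHR-like word stood in 9 of 18 mitosis promoters and in 2 of 19 replication promoters, beside 14.6% of all promoters. CCAAT was present in 14 of 19 replication and 15 of 18 mitosis promoters, beside 33% of all, and CCAAT together with a CHR-like word in 8 of the 18 mitosis promoters, beside 5.26% of all. These are matches of letters, given as a description with no test, and binding was not measured here.

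The replication and mitosis genes were low together in the PRC2-null lines. All 44 were called lower than in the retaining lines, where 24.8% of the 19100 genes tested were called lower, and 40 of the 44 were at least 3-fold lower at an adjusted p of at most 0.01, where 5.09% of all genes were (limma). The median difference of the 44 was -2.74, and that of all genes tested was 0.29. For 41 of the 44 the highest of the 6 PRC2-null samples lay below the lowest of the 6 retaining samples, which held for 13.3% of all genes. The exceptions were TYMS, CENPA and CENPE. As a share of all TPM, the 44 genes took 0.535% ± 0.003 (SD, n = 2) in WT H1 and 0.075% ± 0.014 in EED-/- cells. In bulk RNA, fewer dividing cells and less of each transcript per dividing cell cannot be told apart.

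**Figure D1:**
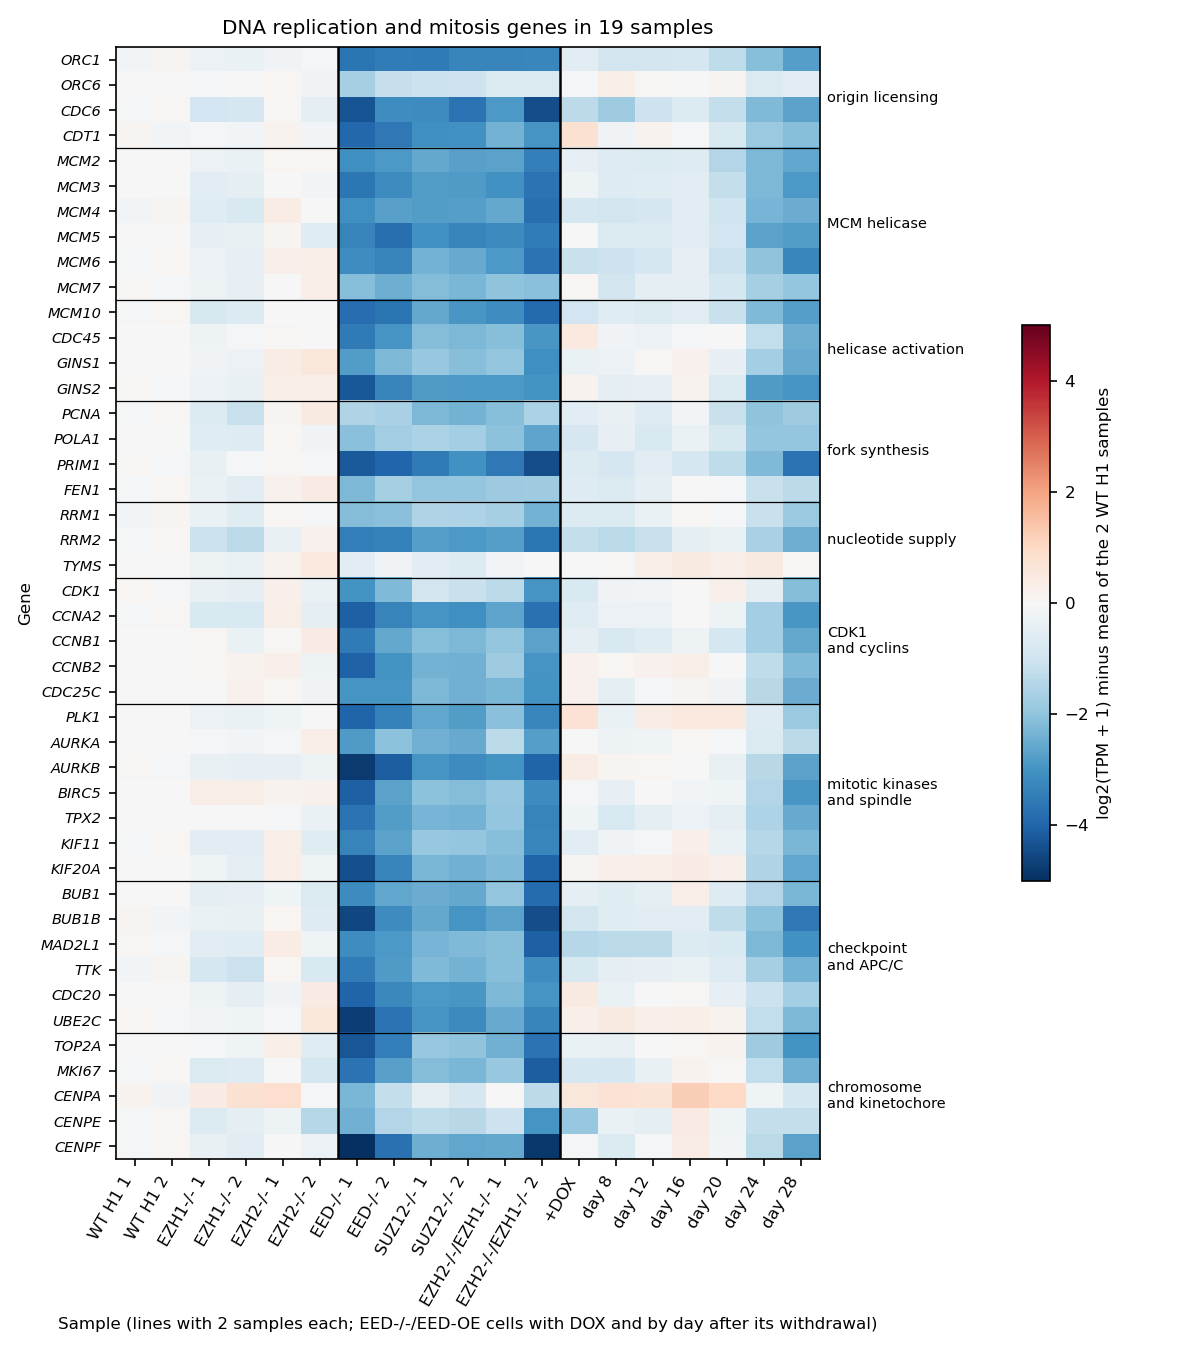
Each row is 1 of the 44 genes, grouped by role, and each column 1 of the 19 samples; colour is log2(TPM + 1) minus the mean of the 2 WT H1 samples. The 6 PRC2-null columns are blue in nearly every row, TYMS is pale throughout, and the days after DOX withdrawal turn blue at days 24 and 28.

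Among the 4 licensing genes the median difference was -3.18. ORC1, the largest subunit of the origin recognition complex, had a TPM of 37.7 to 52.4 (median 43.6) in the 6 retaining samples and of 2.88 to 4.09 (median 3.62) in the 6 PRC2-null samples. The ranges lie far apart, and the difference was -3.29 (SE 0.13, adjusted p = 6.29e-09, limma), the smallest p among the 44. CDT1, which loads the MCM helicase, ran from 56.0 to 70.4 (median 58.4) in the retaining samples and from 3.19 to 11.4 (median 6.56) in the PRC2-null samples. Its difference was -3.13 (SE 0.15, adjusted p = 2.59e-08). ORC6, a small subunit of the same complex as ORC1, had a smaller difference. It ran from 64.1 to 77.6 (median 71.2) in the retaining samples and from 22.6 to 43.7 (median 34.4) in the PRC2-null samples, a difference of -1.03 (SE 0.11, adjusted p = 1.4e-05). CDC6, the remaining loader, differed by -3.23.

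All 6 MCM subunits were lower, by -2.13 (MCM7) to -3.15 (MCM5). MCM3, of the same helicase, had a TPM of 256 to 370.2 (median 344) in the retaining and 27.4 to 52.4 (median 42.2) in the PRC2-null samples, a difference of -2.98 (SE 0.13, adjusted p = 1.45e-08, limma). MCM5 had 150.5 to 250.5 (median 202) against 15.7 to 27.6 (median 22.0). The 4 genes that activate the helicase had a median difference of -2.84. GINS2, a GINS subunit, ran from 36.25 to 59.65 (median 47.1) in the retaining samples and from 1.55 to 5.78 (median 5.34) in the PRC2-null samples, and its difference was -3.18 (SE 0.16, adjusted p = 4.1e-08).

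The 4 fork genes split in size. PRIM1, the catalytic subunit of primase, had a TPM of 47.6 to 64.3 (median 59.4) in the retaining samples and 1.89 to 6.75 in the PRC2-null samples. Its difference of -3.71 (SE 0.18, adjusted p = 2.49e-08, limma) was the largest of the 44. PCNA, the sliding clamp of the DNA polymerases, remained abundant, at 197 to 585 (median 427) against 81.7 to 149.7 (median 118), a difference of -1.71 (SE 0.13, adjusted p = 6.3e-07). POLA1, the catalytic subunit of polymerase alpha, differed by -1.75 and FEN1, the flap nuclease, by -1.87.

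The genes of nucleotide supply held the widest contrast. RRM2, the small subunit of ribonucleotide reductase, ran from 51.5 to 149.96 (median 113) in the retaining samples and from 9.56 to 18.5 (median 14.1) in the PRC2-null samples, a difference of -2.72 (SE 0.17, adjusted p = 1.49e-07, limma). RRM1, its large subunit, had 56.8 to 94.6 (median 80.2) against 15.9 to 29.7 (median 23.4), a difference of -1.73 (SE 0.14). TYMS, thymidylate synthase (ENSG00000176890, chr18:657653-673578 on GRCh38), had 79.7 to 140.2 against 61.7 to 101.4. Its groups overlapped, and its difference was -0.36 (SE 0.11, adjusted p = 0.0106, 1.28-fold). Fitted as 2 groups of 6 samples, without a mean for each line, TYMS did not pass the threshold (adjusted p = 0.0793). In the EZH2-/-/EZH1-/- samples TYMS was at 91.4 and 101.4, beside 98.5 and 101.5 in WT H1. On the annotation, 39.9% of the exon bases of TYMS are shared with ENOSF1 on the other strand. The library kit is not stated to keep strand, so reads of the pair may not be told apart, and ENOSF1 was listed at 6.66 to 22.4 in the 12 samples. For the other genes here that share exon bases with a neighbour, the share was at most 11.6%.

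The 5 genes of CDK1 and its cyclins had a median difference of -2.66. CCNB1, cyclin B1, had a TPM of 185 to 309.6 (median 239) in the retaining and 18.8 to 57.4 (median 43.3) in the PRC2-null samples, a difference of -2.56 (SE 0.19, adjusted p = 5.32e-07, limma). CCNA2, cyclin A2, had 59.4 to 125 (median 84.4) against 5.03 to 15.45, a difference of -3.02 (SE 0.22). CDK1 itself differed least of the 5, by -1.76 (SE 0.26), with 66.5 to 112 against 10.95 to 49.2.

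Of the 7 mitotic kinase and spindle genes, AURKB, the kinase of the chromosomal passenger complex, fell most. Its TPM was 128 to 178 (median 137) in the retaining samples and 5.28 to 21.3 (median 14.04) in the PRC2-null samples, a difference of -3.42 (SE 0.18, adjusted p = 4.59e-08, limma). TPX2, which activates aurora A on the spindle, had 136 to 176 (median 174) against 12.4 to 44.9 (median 28.6) and differed by -2.68 (SE 0.23). KIF20A, a kinesin of late mitosis, had 48.6 to 85.3 (median 63.4) against 2.27 to 14.2, a difference of -2.99 (SE 0.29). None of the 3 overlapped between the groups.

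The 6 checkpoint and anaphase genes had a median difference of -2.79. UBE2C, the ubiquitin-conjugating enzyme of the anaphase-promoting complex (APC/C), ran from 265 to 462 (median 294) in the retaining samples and from 10.85 to 52.6 (median 31.6) in the PRC2-null samples. That difference was -3.43 (SE 0.20, adjusted p = 1.04e-07, limma). BUB1B, a spindle checkpoint protein, had 84.1 to 148 (median 112.5) against 4.72 to 21.8 (median 15.3), a difference of -3.17 (SE 0.32). CDC20, the activator of APC/C whose promoter is shown above, had 158 to 296 (median 207) against 13.0 to 45.7 (median 28.6), with an adjusted p of 1.03e-07.

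The 5 chromosome and kinetochore genes had a median difference of -2.43. CENPF, a kinetochore protein of G2 and mitosis, had a TPM of 79.9 to 125 (median 101) in the retaining and 2.36 to 20.4 (median 13.1) in the PRC2-null samples, a difference of -3.35 (SE 0.35, adjusted p = 8.96e-06, limma). TOP2A, topoisomerase II alpha, had 98.8 to 185 (median 145) against 6.79 to 40.25 (median 20.2), a difference of -2.85 (SE 0.24). MKI67, which encodes the proliferation marker Ki-67, had 23.4 to 46.2 (median 35.3) against 1.57 to 11.3, a difference of -2.43 (SE 0.35, adjusted p = 9.3e-05). CENPA, the centromeric histone, had 17.5 to 36.7 against 3.38 to 19.9, and CENPE, a kinetochore motor, 6.73 to 20.98 against 1.69 to 9.38. Their samples overlapped between the groups, and their differences were -1.33 (SE 0.28) and -1.28 (SE 0.33).

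Each PRC2-null line was low on its own against WT H1. Together the 3 lines had 43 of 44 genes called lower, beside 20.1% of all genes tested. In EED-/- cells 43 of 44 were called lower (17% of all genes tested were), in SUZ12-/- cells 41 (17.4% of all) and in EZH2-/-/EZH1-/- cells 42 (17.4% of all, limma). These comparisons share the same 2 WT H1 samples. The median difference of the 44 genes was -3.23 in EED-/-, -2.37 in SUZ12-/- and -2.69 in EZH2-/-/EZH1-/- cells. Both EED-/- samples lay below both WT H1 samples for all 44 genes, as they did for 28.7% of all genes, and the same held in SUZ12-/- cells (33.7% of all) and for 42 genes in EZH2-/-/EZH1-/- cells (28.8% of all). TYMS did not pass the threshold in EED-/- (-0.37, adjusted p = 0.113) or in EZH2-/-/EZH1-/- cells (-0.05, adjusted p = 0.834), and did in SUZ12-/- cells (-0.63, adjusted p = 0.0155), where CDK1, CENPA and CENPE did not. The double knockout adds the loss of EZH1 to the loss of EZH2: against EZH2-/- cells 41 of the 44 genes were lower in it, beside 16.1% of all genes, and TYMS, CENPA and CENPE did not pass the threshold.

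**Figure D2:**
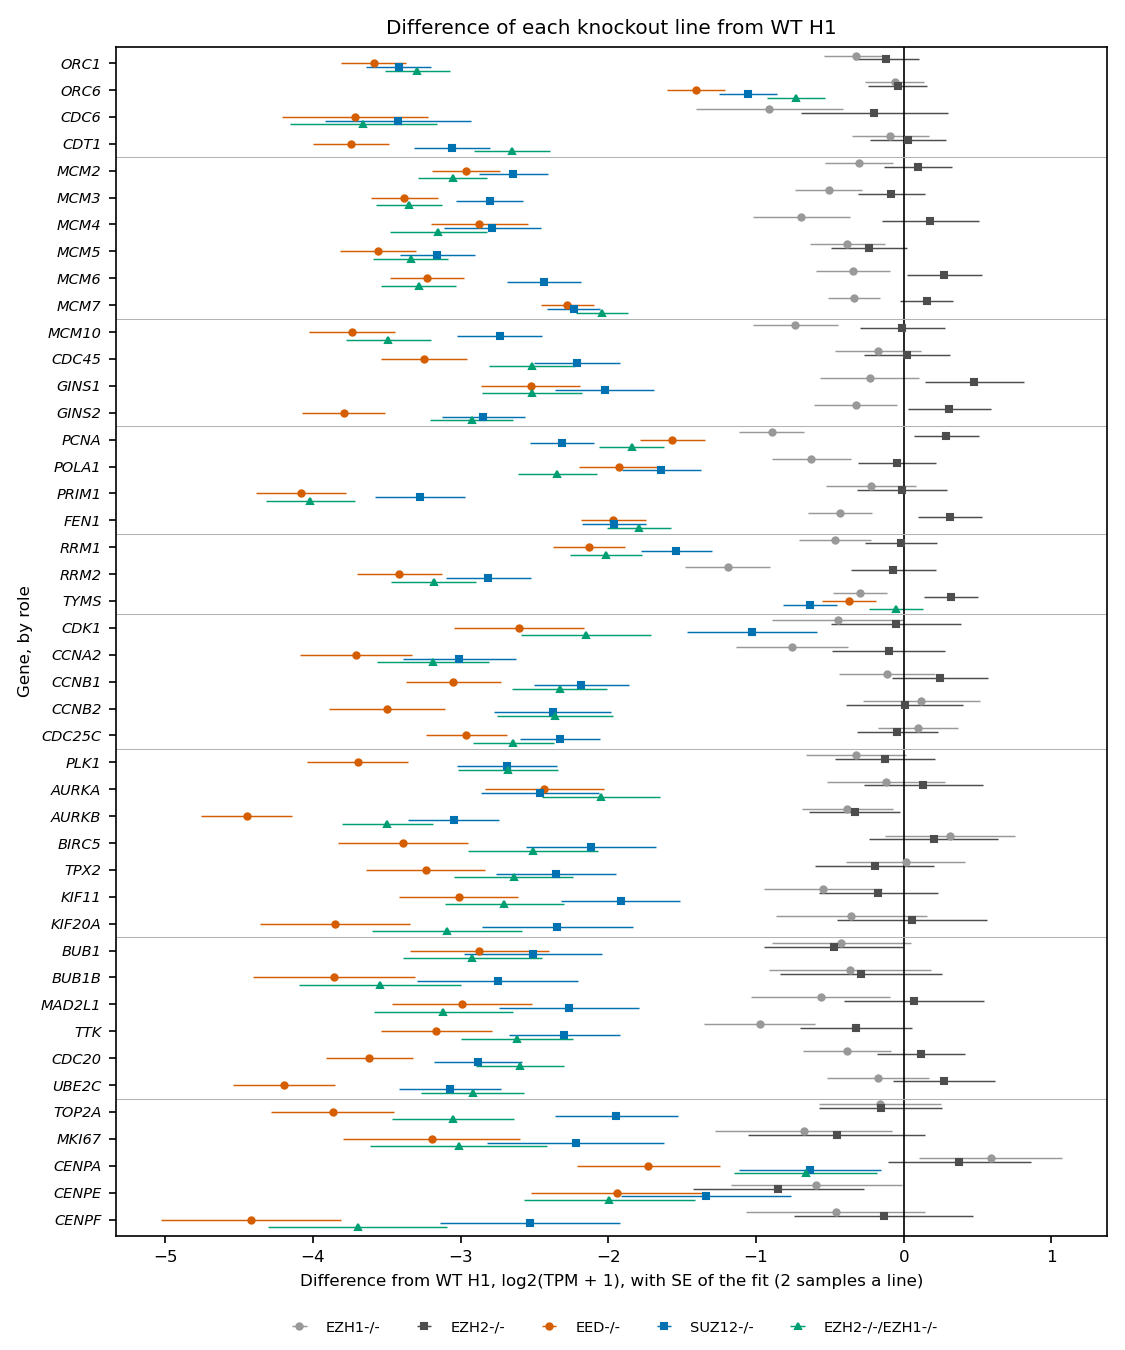
Points give the difference from WT H1 in log2(TPM + 1) for each of the 44 genes in the 5 knockout lines, with bars for the SE of the fit (2 samples a line). The medians of the 44 genes are -3.23, -2.37 and -2.69 in EED-/-, SUZ12-/- and EZH2-/-/EZH1-/- cells, and -0.36 and -0.01 in EZH1-/- and EZH2-/- cells.

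Loss of a single EZH enzyme gave no call among these genes. In EZH2-/- cells 0 of 44 were called and 0 had an unadjusted p below 0.05 (limma, smallest adjusted p = 0.937). Over all genes 0.0314% were called lower and as many higher, and 3.44% were lower and 2.37% higher at an unadjusted p below 0.05. The median difference of the 44 was -0.01, and both samples lay below both WT H1 samples for 6 genes, beside 21.3% of all. In EZH1-/- cells 0 of 44 were called (limma, smallest adjusted p = 0.0836), where 0.314% of all genes were called lower and 0.749% higher. An unadjusted p below 0.05 was found for 6, all of them lower, beside 6.53% of all genes lower at that level. The median of the 44 in EZH1-/- cells was -0.36, with 39 of 44 differences below 0, beside 45.9% of all genes. Both samples lay below both WT H1 samples for 36 genes, as for 28.7% of all genes tested. RRM2 was at 60.9 and 51.5 TPM in EZH1-/- against 125 and 134 in WT H1 (-1.19, SE 0.29, adjusted p = 0.0836). PCNA was at 268 and 197 against 415 and 440.1 (-0.89, SE 0.22, adjusted p = 0.0868). Without either EZH2-/-/EZH1-/- sample in the fit, RRM2 and PCNA were called, beside 1.61% to 1.64% of all genes called lower. When only WT H1 and EZH1-/- were fitted, 28 of the 44 genes were called, 26 of them lower, and BIRC5 and CENPA higher. In that fit 14.1% of the 15476 genes tested were called lower and 14.4% higher. Between EZH2-/- and EZH1-/- cells 0 of the 44 were called (smallest adjusted p = 0.0507, for PCNA), where 0.0942% of all genes were called higher and 0.361% lower. An unadjusted p below 0.05 was found for 9 of the 44, all higher in EZH2-/-, beside 3.58% of all genes higher at that level. Both EZH1-/- samples lay below both EZH2-/- samples for 28, beside 15.3% of all genes.

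The PRC2-null lines were not all equally low. Of the 44 genes, 8 were called higher in SUZ12-/- than in EED-/- cells (9.2% of all genes were called higher) and 1 lower (10.4% of all, limma). The 8 were AURKB, CDC45, CDK1, GINS2, MCM10, MCM6, TOP2A and UBE2C. TOP2A was at 6.79 and 12.9 TPM in EED-/- and at 40.25 and 36.6 in SUZ12-/- samples (1.92, SE 0.41, adjusted p = 0.0086). AURKB was at 5.28 and 8.84 against 21.3 and 18.3 (1.40, SE 0.31, adjusted p = 0.00944). PCNA went the other way, at 149.7 and 138 in EED-/- against 88.6 and 81.7 in SUZ12-/- (-0.75, SE 0.22, adjusted p = 0.0357). Both EED-/- samples lay below both SUZ12-/- samples for 36 of the 44 genes, beside 26.2% of all genes. The count of 9 fell to 0 without EED-/- replicate 1 or without SUZ12-/- replicate 1, to 2 without SUZ12-/- replicate 2 and to 3 without any 1 sample of WT H1 or EZH1-/-, and rose to 24 without either EZH2-/-/EZH1-/- sample, where the shares of all genes rose to 12.2% higher and 16.2% lower. Cell type markers differed in the same contrast, not in a single direction. Of the 7 endoderm markers 3 were called higher in SUZ12-/- cells (AFP, APOA1 and TTR) and 1 lower (SOX17), with a median of -0.25. Their summed TPM of 1440.5 and 3747 in EED-/- and 19366 and 20168 in SUZ12-/- samples was carried by the 3, and 0 of the 7 were at 0 in any of these samples. Of the 8 mesoderm and vascular markers 2 were called higher and 4 lower, with a median of -0.98 and sums of 8126 and 4726 against 14271 and 14050. The part of these markers in the result was not tested.

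Against EED-/- cells, 0 of the 44 genes were called in EZH2-/-/EZH1-/- cells (smallest adjusted p = 0.0761, limma), where 0.23% of all genes were called higher and 0.565% lower. An unadjusted p below 0.05 was found for 10 of the 44, all higher in the double knockout, beside 5.54% of all genes higher at that level. Both EED-/- samples lay below both EZH2-/-/EZH1-/- samples for 12 genes, beside 12.5% of all, and both EZH2-/-/EZH1-/- samples below both SUZ12-/- samples for 10, beside 28.1% of all. MCM6 alone was called between SUZ12-/- and EZH2-/-/EZH1-/- cells, where 8.4% of all genes were called higher in SUZ12-/- and 5.88% lower. It was at 13.8 and 7.45 TPM in EZH2-/-/EZH1-/- against 20.2 and 18.2 in SUZ12-/- samples (0.85 higher in SUZ12-/-, SE 0.25, adjusted p = 0.0469). That call was lost on leaving out any of 11 of the 12 samples, and without the remaining one, EZH2-/-/EZH1-/- replicate 1, 24 genes were called, 22 of them higher in SUZ12-/-, beside 21.3% of all genes called higher and 10.2% lower in that fit.

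The spread between the 2 samples of a line bore on these comparisons. In EZH2-/-/EZH1-/- cells all 23 mitosis genes were lower in replicate 2, by a median of -1.28, and 16 of 21 replication genes were, by a median of -0.68, while the median over all genes was -0.29. The share higher in replicate 2 was 32.6% of all genes and 23.8% of the replication genes. MKI67 was at 11.3 TPM in replicate 1 and 1.57 in replicate 2, CENPF at 18.7 and 3.13, and MAD2L1, a checkpoint protein, at 30.1 and 6.97. The 5 genes that were not lower were ORC1, ORC6, PCNA, FEN1 and TYMS. In EED-/- cells all 23 mitosis genes were higher in replicate 2, by a median of 0.84, and the replication genes by a median of 0.34. There 38.8% of all genes were higher in replicate 2, with a median of -0.095. In EZH2-/- cells the mitosis genes were lower in replicate 2 by a median of -0.51 and the replication genes by -0.04, beside -0.16 over all genes. SUZ12-/- samples differed by little, with a median of -0.12 for the 44 genes beside -0.023 over all genes. The small difference went mostly 1 way: 15.9% of the 44 and 4.3% of the mitosis genes were higher in replicate 2, beside 43.5% of all genes. The markers differed between these samples too: the summed TPM of 8 mesoderm and vascular markers was 5828.5 and 3475 in the EZH2-/-/EZH1-/- samples and 8126 and 4726 in the EED-/- samples, and that of 8 markers of undifferentiated cells 491 and 336, and 182 and 278. Their part in the spread was not tested.

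**Figure D3:**
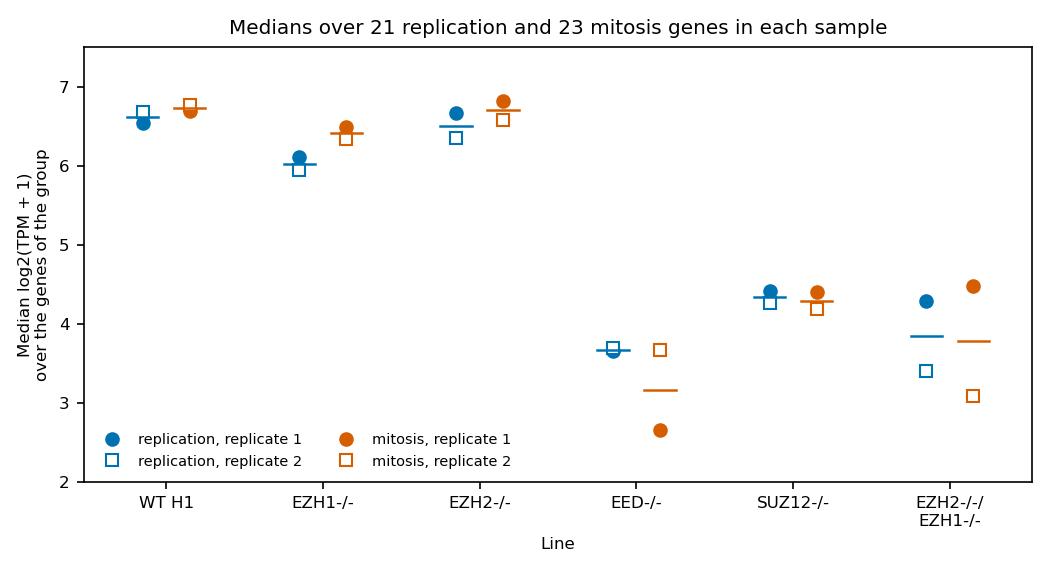
Medians of log2(TPM + 1) over the 21 replication genes (blue) and the 23 mitosis genes (orange) in each sample of the 6 lines, with bars for the mean of the 2 samples. In EED-/- replicate 1 the mitosis median lies 1.00 below the replication median, and in EZH2-/-/EZH1-/- replicate 2 it lies 0.31 below.

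The genes were lowest at the end of the DOX withdrawal. The 44 genes took 0.461% of all TPM with DOX, 0.393%, 0.426% and 0.492% at days 8, 12 and 16, and 0.386%, 0.184% and 0.116% at days 20, 24 and 28. EED itself was at 109 TPM with DOX and at 12.6 to 31.6 on the 6 days without it. The DOX sample is given beside the days and not as their start. Each day is 1 sample, so a change between days has no replicate check. From day 16 to day 20 the median change was -0.38 and 39 of 44 genes were lower. From day 20 to day 24 it was -1.08 with 43 lower, and from day 24 to day 28 -0.80 with 42 lower. The median over all genes changed by 0.00, 0.00 and 0.14 in the same steps, and 49.1%, 48.8% and 38.5% of all genes were lower. In the last step the median change was -1.02 for the mitosis genes and -0.37 for the replication genes.

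A slope per day was fitted across the 6 days after withdrawal. It was negative for 43 of 44 genes, beside 45.1% of all genes, and the median of the 44 was -0.10 per day. Of the 44, 23 were called lower (limma), where 7.34% of the 17245 genes tested were, and 0 higher. The called genes included 12 of 21 replication and 11 of 23 mitosis genes, but 0 of 3 genes of nucleotide supply and 0 of 5 chromosome and kinetochore genes. In all genes 12.3% were called higher. In simulated data, where only 200 of 16364 genes sloped, a slope of 0.1 per day was called for 0.0% of them. A larger share of all genes was called in the real fit, so that value does not measure its power. Genes not called here may still have sloped. The slope rested on single days: 0 genes were called without day 12 or without day 28, 4 without day 24, and 28 without day 8. The shares of all genes called lower were 1.29%, 1.14%, 2.67% and 4.58% without days 12, 28, 24 and 8. For 43 of the 44, TYMS being the exception, days 24 and 28 were both below days 8, 12 and 16, which held for 24.4% of all genes.

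Among replication genes, GINS2 was at 53.6 TPM with DOX and at 33.5, 35.3, 53.5, 28.2, 5.71 and 5.15 on days 8, 12, 16, 20, 24 and 28. Its slope of -0.15 per day (SE 0.04, adjusted p = 0.0422, limma) was the steepest of the 44. PRIM1 was at 37.9 with DOX and at 34.3, 41.9, 33.7, 24.8, 12.5 and 3.81, with a slope of -0.14 (SE 0.03, adjusted p = 0.0222). On the log2 scale the largest fall of GINS2 was between days 20 and 24, and PRIM1 fell at each step from day 12 on. CDT1 was at 107 with DOX, between 54.1 and 71.0 on days 8 to 16, then at 36.7, 16.3 and 13.4, with an adjusted p of 0.0191. MCM3 was at 309 with DOX and at 234, 242, 247, 157, 76.6 and 49.6, and its slope of -0.12 had an adjusted p of 0.0153. ORC1, PCNA and MCM5 were called as well, with adjusted p of 0.0254, 0.033 and 0.0299.

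The slopes of RRM2 and TYMS did not pass the threshold, like those of 21 of the 44 genes in all. RRM2 was at 56.5 TPM with DOX, at 103 on day 20 and at 23.2 on day 28, with a slope of -0.05 (SE 0.04, adjusted p = 0.356, limma). TYMS was at 100.5 with DOX and at 105.5, 121, 135.2, 125, 135.4 and 108, and its slope was 0.004 (SE 0.01, adjusted p = 0.856). TYMS thus ended above both WT H1 samples and was the only one of the 44 with its peak on day 24.

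Among mitosis genes, UBE2C was at 369 TPM with DOX and at 419, 367, 389, 344, 130.4 and 63.6, with a slope of -0.13 (SE 0.03, adjusted p = 0.0235, limma). AURKB was at 218 with DOX and at 189, 182, 172, 133, 64.7 and 26.1 (slope -0.14, SE 0.03, adjusted p = 0.0175). KIF20A was at 75.8 with DOX and stayed between 81.3 and 90.4 through day 20, then was at 23.7 and 10.4. BUB1B was at 69.4 with DOX and at 88.7, 92.6, 89.8, 54.9, 31.7 and 10.3, with an adjusted p of 0.0185. TOP2A was at 172 on day 20, then at 43.8 and 17.9, and its slope did not pass the threshold (-0.13, SE 0.04, adjusted p = 0.0675). MKI67 was at 24.6 with DOX, peaked at 50.6 on day 16 and was at 7.52 on day 28 (adjusted p = 0.219).

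**Figure D4:**
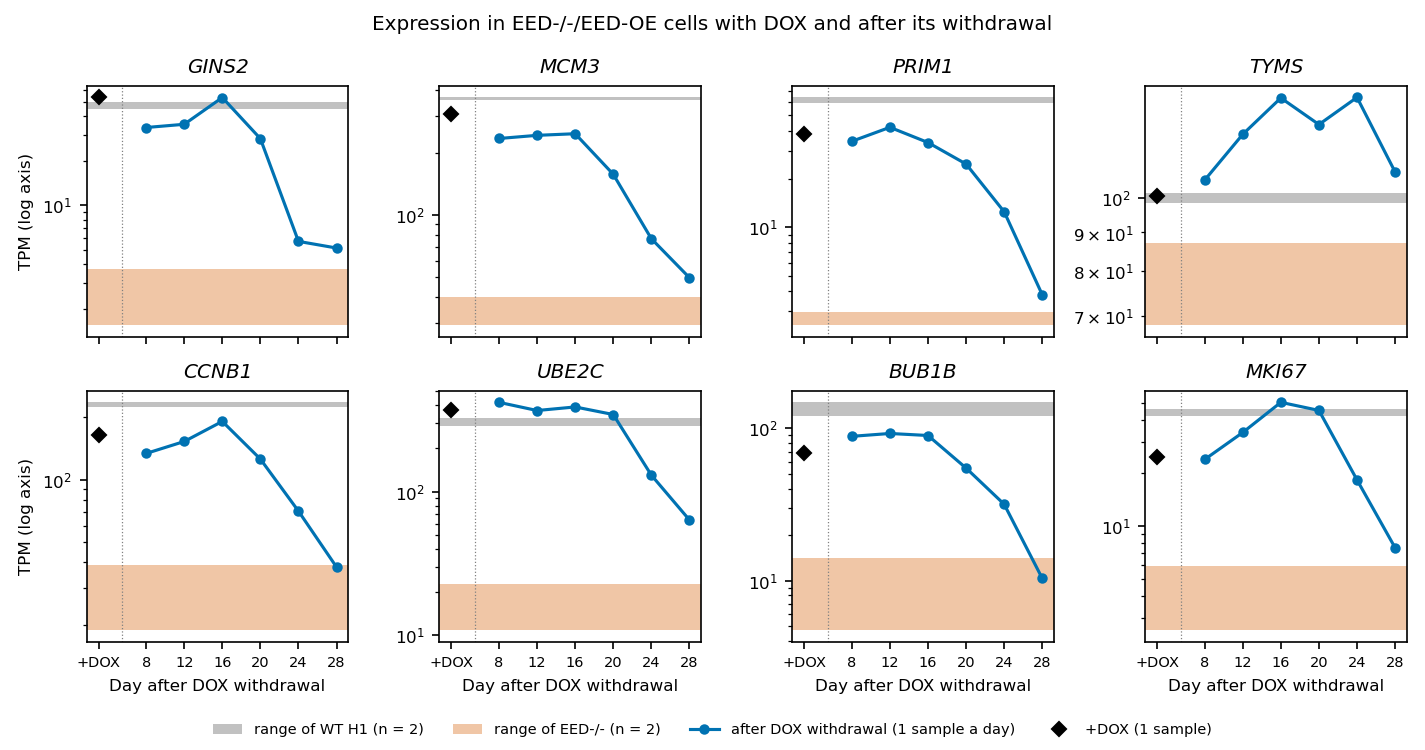
TPM on a log axis for 4 replication genes (top) and 4 mitosis genes (bottom) with DOX and on 6 days after its withdrawal, 1 sample each, with the range of the 2 WT H1 samples in grey and of the 2 EED-/- samples in orange. All but TYMS drop at days 24 and 28, and on day 28 CCNB1 and BUB1B lie inside the range of the EED-/- samples.

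By peak, 22 of the 44 genes were highest on day 16 and 13 with DOX, and 40 were lowest on day 28. On day 28, 36 genes were above both EED-/- samples (34.4% of all genes were), 7 lay between them, and PCNA, at 124 TPM, lay below both (41.4% of all were). Against the 6 PRC2-null samples together, 30 genes on day 28 lay within their range and 14 above it, beside 19.8% of all genes above. The genes above included 10 of the 21 replication and 4 of the 23 mitosis genes. With DOX, 29 of the 44 were below both WT H1 samples and 13 above both, where 49.6% of all genes were below and 35.6% above.

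The labels were checked as far as the values allow. Gene-level TPM of EED was 14.2 and 22.4 in EED-/- samples beside 17.3 and 22.0 in WT H1, and since each deletion removed part of a gene, such totals cannot check the knockouts. Markers of undifferentiated stem cells were lower in PRC2-null lines for 8 of 8, with summed TPM of 5921 to 7125 in the retaining and 182 to 491 in the PRC2-null samples. For the 7 endoderm markers, all called higher, the sums were 5.03 to 15.1 and 1440.5 to 20168, with TTR at 0 in every retaining sample. Of the 8 mesoderm and vascular markers 7 were called higher, with sums of 87.0 to 206 and 3475 to 14271, and HAND1 at 0 in every retaining sample. The trophoblast markers summed to 0.00 to 0.28 and 9.14 to 158.5, with 3 of the 3 tested called higher, and the neural markers to 95.9 to 199 and 67.7 to 385, with 2 of the 4 tested higher and 2 lower. The PRC2-null samples labelled as embryonic stem cells carried little of the defining stem cell transcripts. In the time course the stem cell sum was 5551 to 6420.4 on days 8 to 16, 2702 on day 20 and 469 to 477 on days 24 and 28. The share of these changes in the fall of the replication and mitosis genes was not tested.

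Other genes of the same processes were low as well. Of 46 further replication genes 42 were called lower in the PRC2-null lines, with a median difference of -1.68, and 1 higher; 24.8% of all genes were called lower (limma). RNASEH2A, a subunit of ribonuclease H2, differed by -2.41, CHAF1A, the large subunit of chromatin assembly factor 1, by -3.07, and GMNN, geminin, the inhibitor of CDT1, by -2.27. The one that rose was POLD4 (1.88), a small subunit of polymerase delta, named after its value was seen. Of 43 further mitosis genes 40 were called lower, with a median of -2.03, and 0 higher, among them PTTG1, securin (-2.90), TACC3, a spindle protein (-2.46), and CDC25A, a CDK phosphatase (-2.76). The slope after DOX withdrawal was called lower for 18 of the 46 and 13 of the 43, beside 7.34% of all genes.

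Of 21 transcription regulators of the cell cycle, 13 were called lower and 5 higher, with a median of -0.60, where 24.8% of all genes were called lower and 43.8% higher. MYBL2, of the MYB-MuvB complex, had a TPM of 113 to 247 in the retaining and 6.18 to 28.7 in the PRC2-null samples, a difference of -3.42 (SE 0.19, adjusted p = 7.73e-08, limma). E2F1 had 31.6 to 55.1 against 1.66 to 6.49 (-3.02), and FOXM1 61.6 to 94.9 against 5.15 to 22.3 (-2.61). The 5 that rose, named after their values were seen, were E2F6, RB1, LIN37, LIN54 and FZR1. On days 24 and 28 MYBL2 was at 57.6 and 26.9, from 174 on day 20.

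The inhibitors of cyclin-dependent kinases ran the other way: 6 of 8 were called higher in the PRC2-null lines, where 43.8% of all genes were, with a median difference of 2.21. CDKN2B, which encodes p15, was at 0.00 to 0.66 TPM in the retaining and at 34.1 to 562 in the PRC2-null samples (7.13, SE 0.14, adjusted p = 9.52e-11, limma). CDKN2A, which encodes p16 and p14ARF, was at 0.44 to 13.9 against 109 to 586 (6.69, SE 0.32), and CDKN1C, which encodes p57, at 5.42 to 19.8 against 59.4 to 577 (3.76, SE 0.18). The one called lower was CDKN3 (-2.33), a phosphatase that acts on CDKs, named after its value was seen. CDKN1A, which encodes p21 and was named after its values were seen, was at 6.15 to 23.3 against 175 to 1246. Over the time course CDKN2B was at 0.98 on day 20, 40.0 on day 24 and 362 on day 28, CDKN1A at 85.5, 579 and 760, and CDKN2A at 46.4, 310.1 and 518.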

How the data were processed

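RNA of 19 samples was sequenced from TruSeq libraries. The paper states that reads were aligned to GRCh38 transcripts with Bowtie and RSEM, while the records of the data also name hg19 as a genome build. The authors deposited a TPM for each of 33382 genes and sample, and the columns sum to 999999.2 to 1000001.0. TPM carries no read count, so depth is unknown, a count-based test was not run, and precision rests on the spread between samples.

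Values were taken as log2(TPM + 1), a scale that understates the change of low genes. A gene was tested where 2 or more samples reached a TPM of 1, 19100 over the 12 samples of the lines and 17245 over the time course. limma 3.58.1 in R 4.3.3 (lmFit, contrasts.fit, eBayes with trend and robust) fitted a mean for each line (6 residual degrees of freedom), or a slope over 6 days (4), with Benjamini-Hochberg adjustment over all genes tested. All 44 genes passed both filters, each on values of the whole set of samples. The script was tested on simulated data. Gene positions are from GENCODE 44 and promoters from RefSeq (GRCh38.p14).

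The 44 genes, the further gene lists, the markers and the motif words were chosen with earlier results of these data known. Values in every sample were printed for the gene of each role with the highest mean TPM, the largest difference between PRC2-null and retaining lines or the largest slope, plus MKI67, PCNA and TOP2A; CDC20 was added because its promoter is shown, and other names stand for counts of 5 or fewer or are said to be chosen after seeing values. Replicate numbers follow accession order, and the labels give no pairing. Some titles carry marks that set the 2 samples of a line apart, and the labels do not say whether these mean clone or passage. The labels do not say whether the 2 samples of a line came from separate cultures, so p-values measure the spread between these samples, which may be technical. Alternatives were another pseudocount, no filter, median-ratio scaling, plain eBayes, fits to the compared lines alone, days 20 to 28 against days 8 to 16, the +DOX sample at day 0, and leaving out each sample.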

Additional observations from a re-analysis of the deposited data

Results flagged for a closer look

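Among 46 checks for a sample far from the other 5 of its group, of which chance would pass about 1 in 20, 3 genes stood out by Dixon's ratio. GINS2 was lowest in EED-/- replicate 1, at 1.55 TPM, beside 3.73 to 5.78 in the other PRC2-null samples. PRIM1 was lowest in EZH1-/- replicate 1, at 47.57, beside 59.0 to 64.3 in the other retaining samples, and TPX2 in EZH2-/- replicate 2, at 136.44, beside 168 to 176.

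The change from WT H1 differed between SUZ12-/- and EED-/- cells for 9 of the 44 genes by the contrast of the lines in limma: AURKB, CDC45, CDK1, GINS2, MCM10, MCM6, TOP2A and UBE2C were less reduced in SUZ12-/- cells and PCNA more. In the same contrast 9.2% of all genes were called higher in SUZ12-/- cells and 10.4% lower. GINS2 is thus the only gene in both groups of results, and its difference between the lines (0.94, adjusted p = 0.0388) contains the low EED-/- sample. Between SUZ12-/- and EZH2-/-/EZH1-/- cells the change differed for 1 gene, MCM6, where 8.4% of all genes were called higher in SUZ12-/- and 5.88% lower. That is 2.27% of the 44, below the share of all genes, and the MCM6 call depended on single samples as described above.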

How the results depend on the processing

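The difference of the 44 genes in PRC2-null lines kept its direction. Without single samples their median difference from the retaining lines was -2.95 to -2.57, and that of all genes 0.24 to 0.33. With all samples, 43 were called in the fit of 2 groups of 6 samples and 40 at 1% and 3-fold. Against WT H1 the median of the 44 without single samples was -3.10 to -2.54 for the PRC2-null lines together. It was -3.52 to -2.92 in EED-/-, -2.42 to -2.35 in SUZ12-/- and -3.27 to -2.14 in EZH2-/-/EZH1-/- cells. For EZH2-/-/EZH1-/- against EZH2-/- cells it was -3.21 to -2.25. The median over all genes lay between 0.04 and 0.41 in these fits. The fit of 2 groups called 21.7% of all genes lower, and 5.09% were lower at 1% and 3-fold. Median-ratio scaling moved the median over all genes from 0.29 to 0.16 and that of the 44 from -2.74 to -2.90.

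Counts near the threshold moved, and the cause was not tested. For EZH1-/- against WT H1 the count was 28 with only these lines in the fit and 0 to 2 without single samples, and for EZH2-/- against WT H1 it was 0 to 0. For SUZ12-/- against EED-/- it was 1 at 1% and 3-fold, 4 with no filter, 21 under median-ratio scaling, 14 with only these lines, and 0 to 24 without single samples. For EZH2-/-/EZH1-/- against EED-/- it was 1 under median-ratio scaling and 0 to 5 without single samples, and for EZH2-/- against EZH1-/- 0 to 3. Over all genes, median-ratio scaling changed the calls of SUZ12-/- against EED-/- from 1758 higher and 1978 lower to 2412 and 1428, and of EZH2-/-/EZH1-/- against EED-/- from 44 and 108 to 88 and 97. For SUZ12-/- against EZH2-/-/EZH1-/- the count was 0 at 1% and 3-fold, with a pseudocount of 0.1, with no filter, with plain eBayes and with only these lines, and 0 to 24 without single samples. In the settings with a count of 0 on all samples of these lines, 2.99% to 8.36% of all genes were called higher and 1.14% to 5.45% lower. The largest counts came without an EZH2-/-/EZH1-/- sample. For the slope it was 0 at 1%, 10 with no filter (3.42% of all genes called lower) and 14 with plain eBayes (6.52% of all). It was 3 for days 20 to 28 against days 8 to 16 (3.06% of all). With the +DOX sample placed at day 0, although its title carries a day 28 mark, it was 13 (5.74% of all). Without single days it was 0 to 28. The slope of TYMS changed sign under median-ratio scaling (-0.0037), without day 8 (-0.0081) and without day 24 (-0.0003), with a range without single days of -0.0081 to 0.0189. That of RRM2 did so without day 28 (0.0058), with a range of -0.0952 to 0.0058.

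A fit with a replicate block called 44 genes between PRC2-null and retaining lines and 8 between SUZ12-/- and EED-/- cells. It called 24.8% of all genes lower in the former comparison, and 9.08% higher and 10.3% lower in the latter. The replicate numbers follow accession order, and the labels name no batch or day that samples of the same number share. The block changed no other count.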
